A study of Mus musculus with 8 samples.

Results

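Matrix metalloproteinases are zinc enzymes that cut collagens, laminins and other proteins of the matrix around cells, and the tissue inhibitors of metalloproteinases, or TIMPs, block them. Their transcripts were measured in mouse satellite cells, the stem cells of skeletal muscle, after an injury and at rest. The genes described are 6 proteases (Mmp2, Mmp9, Mmp11, Mmp14, Mmp15 and Mmp19) and 4 inhibitors (Timp1, Timp2, Timp3 and Timp4). They were found by their gene names on the array, where 12 probes carry them, and they are 10 of 22002 named genes. Of the 10 genes, 8 were bright enough to be tested, out of 13773 genes tested in all.

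The injured group comprised 4 samples of satellite cells from muscle taken 3 days after cardiotoxin, a snake toxin that destroys muscle fibres and is followed by regeneration. The basal group comprised 4 samples from uninjured muscle. Mice of both groups were labelled male C57BL/6 animals aged 3 months, with no transgene named and no pooling stated. The authors' column names mark all samples of both groups as WT, or wild type. Cells of both groups were sorted for integrin alpha 7, and cells with CD31, CD45, CD11b or Sca1, which mark endothelial, blood and mesenchymal cells, were removed. Total RNA of each sample went on 1 array in 1 colour, and the samples were called biological replicates.

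Resident stem cells of muscle lie under a basement membrane rich in type IV collagen and laminin, and after injury they leave it, divide and migrate. Metalloproteinases are made as inactive proenzymes. Mmp14, a protease anchored in the cell membrane, activates the secreted gelatinase Mmp2 at the cell surface, with Timp2 as the bridge between them. Timp1 inhibits many secreted metalloproteinases and binds the membrane-type enzymes poorly, whereas Timp3 stays bound to the matrix and also inhibits enzymes of the Adam and Adamts families.

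The values below rest on single probes of 60 bases, and the starts of some of them are shown. These are the first 30 bases of the probes of Mmp2, Timp3 and Timp1, the genes with the largest differences, and of both probes of Timp2 and both of Mmp11, which gave unlike readings. The sequences are printed as the array files give them, and positions are on the mouse genome build mm9.
Mmp2 (chr8:95376840-95376899, plus strand): gttcttcaacatctatgacctttttatggc
Timp3 (chr10:85811696-85811755, plus strand): atagtgacttttggggatagatctgtctgg
Timp1 (chrX:20451802-20451861, plus strand): tacttttcctccatctttctttctcttaga
Timp2, brighter probe (chr11:118163146-118163205, minus strand): ccgtgagcgttcttgtgccgtgttgatgcc
Timp2, other probe (chr11:118171964-118178741, minus strand): taattgcaggaaaggcagaaggagatggca
Mmp11, brighter probe (chr10:75386209-75386268, minus strand): tggagagatagtgaactgatcatattctgg
Mmp11, other probe (chr10:75386024-75386083, minus strand): gcacaggtaccctctaagccatgtacatgt
The other Timp2 probe has genome coordinates that span 6778 bases for a probe of 60, and all other probes of the 10 genes span 60 bases. In the files' position column it starts at base 652 of its target and the brighter Timp2 probe at base 2791. The same column puts the brighter Mmp11 probe at base 1947 and the other at base 2132. Exon and UTR positions of the probes were not used here.

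Every level below is the log2 of the processed signal minus the 75th percentile of the same array, so 0 marks that percentile. Differences are injured minus basal on this log2 scale, with the moderated SE of limma after the ± sign (n = 4 each). Each array held 59305 spots that are not controls, of which 50.1% to 56.7% were well above background, the scanner software's mark for a measurable signal, and none was saturated. Array-to-array correlations over 10773 genes were 0.990 to 0.996 among injured arrays, 0.955 to 0.978 among basal arrays and 0.833 to 0.923 between the groups. The injured arrays were on 1 slide and the basal arrays on another, so slide and injury cannot be told apart.

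Some libraries stood apart or went against their labels. Injured replicates 2, 3 and 4 had Xist, the transcript of the inactive X chromosome in females, at 6.37, 6.55 and 6.57, and Ddx3y, a Y-linked gene, not above background, although all samples were labelled male. Injured replicate 1 had Xist at 1.72, and basal replicates 1 to 4 had Xist at 3.85, 2.15, -1.12 and -4.97. All of these 5 arrays had Ddx3y above background. Apparent sex by these transcripts thus ran partly with group, and its part in the differences was not tested. Basal replicates 1 and 2 also carried Pecam1, the gene of the sorted-out endothelial protein CD31, at 3.20 and 2.87. It was at -2.20 and -3.22 on basal replicates 3 and 4, and between -3.11 and -1.82 on the injured arrays. Pax7, which defines satellite cells, was above background on all arrays, at 1.81 to 1.99 on injured and 4.38 to 5.40 on basal arrays.

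Among the 8 genes tested, 2 were higher in injured samples (Timp1 and Mmp15) and 4 were lower (Mmp2, Timp3, Mmp14 and Timp2), while Mmp11 and Timp4 did not pass the test. The threshold was an adjusted p of 0.05 in limma, with Benjamini-Hochberg adjustment over all genes tested. Across all genes tested, 35.3% were called higher and 24.8% lower, together 60.1%. The median difference, injured minus basal, was -0.67 over the 8 genes and 0.17 over all genes. For 5 of the 8 genes the injured and basal arrays did not overlap, as was so for 57.2% of the 13764 genes with a value on every array. The genes' own differences ran from -7.19 to 4.35, so the group shared no direction, and the inhibitors did not move together: Timp1 rose and Timp3 fell. Timp2 was called lower by its brighter probe only, and its other probe differed by -0.04. Without basal replicates 1 and 2, the same 2 genes were higher and the same 4 lower. Leaving out that pair had to enlarge the differences of Timp1, Mmp15, Mmp2, Mmp14 and Timp2. For these genes the kept call is therefore no separate support. The Timp3 difference became smaller, at -3.10. Without injured replicates 2, 3 and 4, which leaves 1 injured array and assumes that it varies as the basal arrays do, 0 were higher and Mmp2 and Timp3 were lower.

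**Figure D1:**
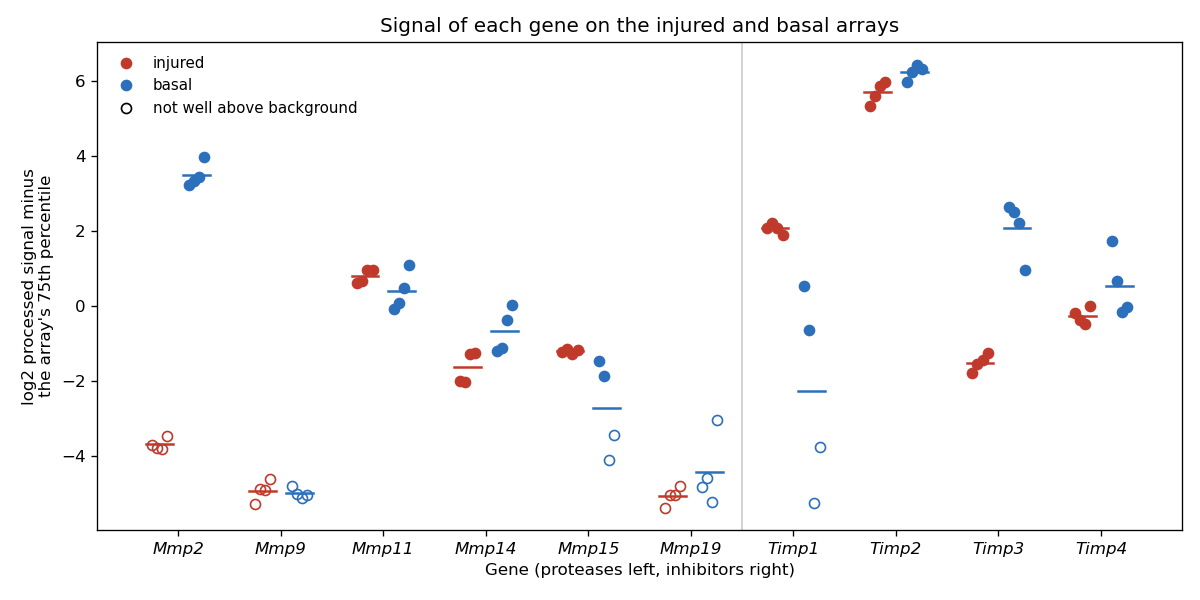
Level of each of the 10 genes on each array, as log2 of the processed signal minus the array's 75th percentile, with injured arrays left of basal arrays. Bars are group means, and open points were not well above background. Mmp2 and Timp3 sat lower on every injured array than on any basal array, Timp1 sat higher, and Mmp9 and Mmp19 were at background throughout.

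Mmp2, which encodes a gelatinase that degrades type IV collagen and denatured collagens, was the gene of this family that differed most. Its level was -3.70, -3.79, -3.80 and -3.46 in injured samples, where the probe was not well above background on any array. In basal samples it was 3.24, 3.34, 3.45 and 3.99. All 4 basal arrays read it clearly and close together, and no injured array read it above background.

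In processed signal, before scaling, the Mmp2 probe gave 10.2, 9.24, 8.81 and 9.47 units in injured samples, against 1117, 1310, 1376 and 1993 units in basal samples. Mmp2 was therefore at least 77.4-fold lower in injured samples (limma, adjusted p = 2.8e-07). That bound takes the mean basal level against the dimmest signal still counted as above background on each injured array. The fitted difference of -7.19 ± 0.18 lies beyond what the injured arrays could measure. With normexp background correction and the 75th percentile the difference was -4.29, and in the authors' deposited table it was -4.39. The call was kept without basal replicates 1 and 2, at -7.41. Those arrays were the lowest basal arrays for Mmp2, so leaving them out had to enlarge the difference. With injured replicate 1 alone the difference was -7.21.

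Mmp14 encodes the membrane-bound activator of the Mmp2 proenzyme. Its level was -1.99, -2.01, -1.29 and -1.24 in injured samples, against -1.19, -1.11, -0.37 and 0.03 in basal samples. The highest injured and the lowest basal array nearly met, and the groups did not overlap. Mmp14 fell by 0.97 ± 0.32, which is 1.96-fold lower (limma, adjusted p = 0.0275). This call did not withstand leaving out single arrays. The difference was -0.85 without injured replicate 1 or without injured replicate 2 (limma, adjusted p = 0.0745 and 0.0753), -0.88 without basal replicate 3 (adjusted p = 0.0653) and -0.74 without basal replicate 4 (adjusted p = 0.0598). In the authors' deposited table it was -1.94 with an adjusted p of 0.0890 (limma), and with normexp and quantile normalization it was -0.43.

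Mmp15 encodes another membrane-type protease. Its level was -1.22, -1.14, -1.27 and -1.16 in injured samples. In basal samples it was -1.46, -1.86, -4.09 and -3.43, with only basal replicates 1 and 2 well above background. The injured arrays were nearly equal, and the basal arrays fell into a brighter and a dimmer pair. Mmp15 rose by 1.51 ± 0.53 (limma, adjusted p = 0.0361), a fitted size that rests in part on basal arrays below background. Against basal replicates 3 and 4 alone, which were both below background, Mmp15 was at least 3.28-fold higher. The fit without basal replicates 1 and 2 gave 2.56 on those dim values (limma, adjusted p = 6.5e-05). Leaving out the brighter basal pair had to enlarge the difference, so this bound is no separate support for the rise. The call was lost when any single injured array was left out (limma, adjusted p = 0.0684 to 0.0746), without basal replicate 3 (1.05, adjusted p = 0.0641), without basal replicate 4 (1.27, adjusted p = 0.0889) and with no filter on dim probes (adjusted p = 0.0575). With normexp and the 75th percentile the difference was 0.44.

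Mmp11 encodes stromelysin-3, named for its expression in stroma around tumours. Its brighter probe read 0.62, 0.66, 0.98 and 0.96 in injured samples, against -0.07, 0.08, 0.49 and 1.10 in basal samples. Basal replicate 4 was the highest array of all, and the groups overlapped. The difference of 0.41 ± 0.25 did not pass the test (limma, adjusted p = 0.192). It was 0.64 and passed without basal replicate 4 (limma, adjusted p = 0.018), and it was 1.24 and passed in the authors' deposited table (limma, adjusted p = 0.0284). Without basal replicates 1 and 2 it was 0.01. The other Mmp11 probe was not well above background on any array.

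Mmp9, the other gelatinase, and Mmp19 were not well above background on any of the 8 arrays. Mmp9, whose probe was spotted 10 times per array, ranged from -5.27 to -4.61 in injured samples and from -5.12 to -4.79 in basal samples. Mmp19 ranged from -5.38 to -4.80 in injured samples and from -5.23 to -3.05 in basal samples, where the highest value was on basal replicate 4. No fold is given for either gene, since both groups were below what the arrays could measure.

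Timp1 was the inhibitor that rose. Its level was 2.09, 2.22, 2.07 and 1.91 in injured samples. In basal samples it was 0.55, -0.64, -5.24 and -3.77, and only basal replicates 1 and 2 were well above background. All injured arrays, including injured replicate 1, lay close together and above every basal array.

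In processed signal the Timp1 probe gave 564, 593, 519 and 392 units in injured samples, against 172, 83.4, 3.33 and 9.22 units in basal samples. Timp1 rose by 4.35 ± 1.13 (limma, adjusted p = 0.00968), a fitted size that rests in part on basal arrays below background. Against basal replicates 3 and 4 alone, both below background, Timp1 was at least 31.7-fold higher. The fit without basal replicates 1 and 2 gave 6.58 on those dim values (limma, adjusted p = 2.5e-05). Leaving out the brighter basal pair had to enlarge the difference, so this bound is no separate support for the rise. With normexp and quantile normalization the difference was 2.22. With injured replicate 1 as the only injured array it was 4.37 and did not pass (limma, adjusted p = 0.222).

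The basal arrays with more Timp1 and Mmp15 were also those with more of some endothelial transcripts. They also had more Xist, at 3.85 and 2.15 on basal replicates 1 and 2, against -1.12 and -4.97 on basal replicates 3 and 4. Besides Pecam1, basal replicates 1 and 2 had the endothelial genes Cdh5 at -1.36 and -1.99 and Emcn at -0.24 and -0.53, against -5.18 and -4.97 for Cdh5 and -4.78 and -5.16 for Emcn on basal replicates 3 and 4. Ly6a, the gene of the sorted-out protein Sca1, was at 1.34 and 0.07 on basal replicates 1 and 2, and at -3.30 and -3.49 on basal replicates 3 and 4. Not all endothelial markers ran this way: Tek was at 3.50 and 3.13 on basal replicates 1 and 2 and at 4.33 and 3.97 on basal replicates 3 and 4, and Kdr was between 2.63 and 2.93 on all basal arrays. The summed linear level of 9 endothelial markers, in multiples of the array's 75th percentile, was 9.69 to 11.9 on injured arrays and 22.9 to 42.8 on basal arrays. Of 7 of these markers tested, 1 was higher and 2 were lower. The part of what sets these basal arrays apart in the Timp1 and Mmp15 values was not tested.

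Timp3, the inhibitor that binds to matrix, fell. Its level was -1.79, -1.55, -1.43 and -1.25 in injured samples, against 2.63, 2.50, 2.21 and 0.97 in basal samples. Each array was well above background, and the groups lay far apart, with basal replicate 4 the lowest of its group. Timp3 fell by 3.59 ± 0.35, which is 12.0-fold lower (limma, adjusted p = 7.2e-05). The call was kept in all 21 alternatives, in which the difference ran from -3.96 to -2.45.

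Timp2, which both inhibits metalloproteinases and takes part in the activation of Mmp2, gave unlike readings on its probes. The brighter probe read 5.34, 5.61, 5.88 and 5.97 in injured samples, against 5.96, 6.23, 6.44 and 6.31 in basal samples. Injured replicate 4 lay just above basal replicate 1, so the groups overlapped. By this probe Timp2 fell by 0.54 ± 0.18, which is 1.45-fold lower (limma, adjusted p = 0.0275).

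The other Timp2 probe read 4.33, 4.46, 4.59 and 4.67 in injured samples, against 4.42, 4.37, 4.75 and 4.69 in basal samples. Its difference was -0.04 ± 0.14 (limma over 31313 probes, adjusted p = 0.812). The mean of both probes differed by -0.29 and did not pass (limma, adjusted p = 0.143), and neither did the authors' deposited table, at -0.41 (limma, adjusted p = 0.295). The call was also lost without injured replicate 1 (-0.42, adjusted p = 0.0757), injured replicate 2 (-0.51, adjusted p = 0.0698), basal replicate 2 (-0.54, adjusted p = 0.0508), basal replicate 3 (-0.47, adjusted p = 0.0654) or basal replicate 4 (-0.51, adjusted p = 0.0566).

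**Figure D2:**
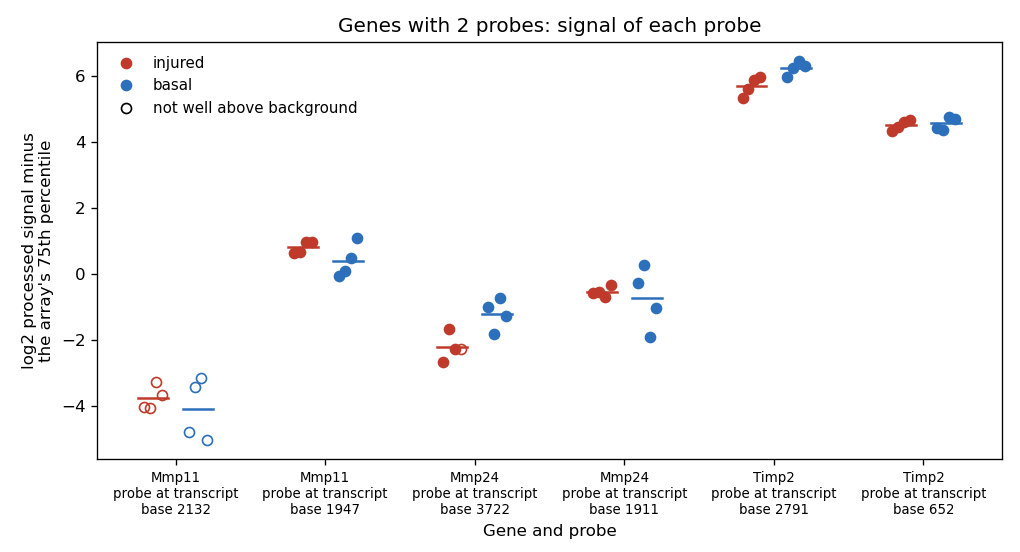
Levels on each array of both probes of Mmp11, of Timp2 and of the membrane-type protease gene Mmp24, as log2 of the processed signal minus the array's 75th percentile, injured arrays left of basal arrays, with bars for group means and open points not well above background. The brighter Timp2 probe was lower in injured samples by a difference of -0.54 and the other by -0.04, only the brighter Mmp11 probe was above background, and the Mmp24 probes differed by -1.02 and 0.20.

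Timp4, an inhibitor best known from heart and skeletal muscle, read -0.17, -0.38, -0.49 and 0.00 in injured samples, against 1.73, 0.66, -0.16 and -0.02 in basal samples. Only basal replicates 1 and 2 lay above the injured range. The difference of -0.81 ± 0.39 did not pass the test (limma, adjusted p = 0.10). It passed without basal replicate 3 (-1.05, adjusted p = 0.0452), and it was -0.42 without basal replicate 1 (adjusted p = 0.146) and -0.16 without basal replicates 1 and 2 (adjusted p = 0.430, all by limma). The part of the endothelial and Sca1 transcripts on those basal arrays in the Timp4 values was not tested.

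**Figure D3:**
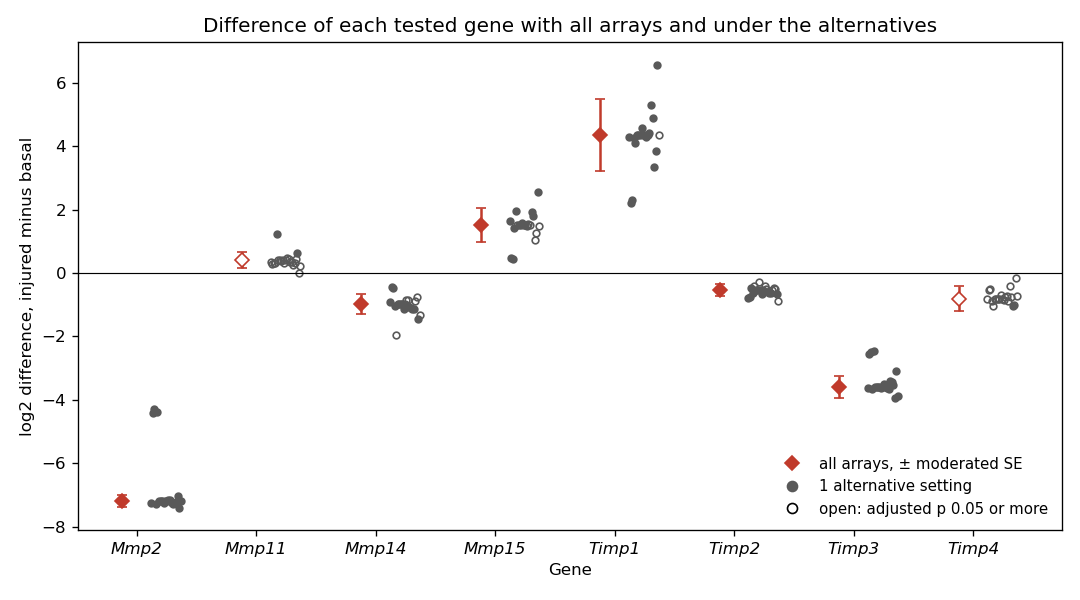
Difference of each of the 8 genes tested, injured minus basal, on the log2 scale, with all arrays (diamonds, bars for the moderated SE, n = 4 each) and under each alternative (grey points to the right), open where the adjusted p was 0.05 or more. Mmp2 lay at -7.19 and Timp3 at -3.59, Timp1 at 4.35, and the other 5 genes between -0.97 and 1.51.

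Other cell types can also supply these transcripts, and in a sorted bulk sample fewer cells of a type and less RNA per cell cannot be told apart. The fibro-adipogenic markers summed to 8.32 to 11.4 on injured arrays and 58.4 to 86.8 on basal arrays, with 0 of 6 tested higher and 4 lower, and Pdgfra, which defines these cells, was not above background on any array. The pericyte and smooth muscle markers summed to 20.7 to 34.1 on injured and 98.9 to 158 on basal arrays, with 0 of 9 higher and 6 lower. Of these, Rgs5, Pdgfrb, Abcc9 and Kcnj8 were not above background on any injured array. Most of the pericyte and smooth muscle sum was Notch3, which averaged 4.02 on injured and 6.63 on basal arrays. Most of the fibro-adipogenic sum was Col3a1, which averaged 2.72 on injured and 5.46 on basal arrays. These sums ran the same way as Mmp2 and Timp3, and so did the endothelial, satellite cell and neutrophil sums. The part of any of these cell types in the Mmp2 and Timp3 values was not tested. Satellite cell markers summed to 115 to 145 on injured and 186 to 255 on basal arrays, with 2 of 10 higher and 6 lower. Myf5, also on that list, was not above background on any array.

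Macrophage markers summed to 492 to 584 on injured and 473 to 541 on basal arrays, with 0 of 6 tested higher and 1 lower, and Mrc1 was not above background on any array. Most of that sum was Itgam, the gene of the sorted-out protein CD11b. Itgam read 8.83 to 9.09 on injured and 8.74 to 8.95 on basal arrays. Csf1r read 5.15 to 5.30 on injured and 5.45 to 5.60 on basal arrays. Ptprc, the gene of the sorted-out protein CD45, read -1.45 to -0.91 on injured and -1.67 to -0.03 on basal arrays. On injured and basal arrays, Adgre1 averaged -2.48 and -2.43, Fcgr1 -2.28 and -2.41, and Cd68 -3.30 and -2.57. Cd14 and Lyz2 were too dim to be tested. The share of macrophages on these arrays was not tested. The single neutrophil marker tested was lower, the neutrophil sums were 255 to 292 on injured and 395 to 438 on basal arrays, and Retnlg and Mmp8 were not above background on any array. That sum was almost all Csf3r, which averaged 8.09 on injured and 8.70 on basal arrays. S100a9 read -0.88 and 1.83 on basal replicates 1 and 2 and -5.27 and -3.21 on basal replicates 3 and 4. S100a8 read -2.45 and -0.13 on the first pair and -5.15 and -5.07 on the second. On injured replicate 1, S100a9 and S100a8 read -2.10 and -2.16. Both genes lay between -5.04 and -4.64 on injured replicates 2, 3 and 4. Mmp8, the neutrophil collagenase, and Mmp9 are metalloproteinases that neutrophils carry, and neither was above background here.

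Of 17 further Mmp genes on the array, 6 could be tested, of which 1 was higher, 2 were lower and 3 did not pass. Mmp7 encodes matrilysin, a small secreted protease. It read -5.38 to -4.78 in injured samples, where it was not well above background on any array, against -2.31, -2.08, -2.20 and -1.30 in basal samples. That made it at least 1.74-fold lower in injured samples (limma, adjusted p = 2.7e-05). Mmp28, a secreted protease also called epilysin, fell by 0.88 ± 0.21 (limma, adjusted p = 0.00635), with levels of -1.34, -1.81, -1.96 and -1.93 in injured samples, against -1.16, -0.66, -0.54 and -1.18 in basal samples, but it differed by 0.45 in the authors' deposited table. Mmp27 rose by 0.47 ± 0.14 (limma, adjusted p = 0.0199). It was above background on 4 injured and 2 basal arrays, and the call was lost without injured replicate 3 or injured replicate 4 (0.46 and 0.40, adjusted p = 0.0522 and 0.0547), without basal replicates 1 and 2 (0.41, adjusted p = 0.0643), with normexp (0.16 with quantile normalization and 0.13 with the 75th percentile, adjusted p = 0.0701 and 0.195), with the mean of all probes (0.63, adjusted p = 0.213) and with trend and robust options (adjusted p = 0.0894). In the authors' deposited table the Mmp27 difference was -0.36.

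Mmp17 (-0.66 ± 0.37), Mmp23 (-0.25 ± 0.19) and Mmp24 (0.20 ± 0.41) did not pass, with adjusted p-values of 0.153, 0.277 and 0.697 (limma). Mmp24 encodes a membrane-type protease, and its second probe gave a difference of -1.02 (limma over 31313 probes, adjusted p = 0.0137), so its probes disagreed in sign. The remaining Mmp genes did not reach the brightness needed for a test.

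Among 12 genes that regulate metalloproteinases, 8 were tested, of which 2 were higher and 3 lower, with a median difference of -0.24. Reck, a membrane-anchored inhibitor of several metalloproteinases, fell by 1.75 ± 0.28 (limma, adjusted p = 0.000814). For Reck the mean of all probes gave -0.87, and the authors' deposited table gave -0.79 without passing (adjusted p = 0.203). Lrp1, an endocytic receptor that clears metalloproteinases and their complexes with TIMPs from the cell surface, fell by 1.70 ± 0.18 (adjusted p = 0.000105). The thrombospondins, matrix proteins that bind Mmp2, went opposite ways: Thbs2 fell by 4.49 ± 0.44 (adjusted p = 7.4e-05) and Thbs1 rose by 2.81 ± 0.59 (adjusted p = 0.00337). Bsg, which encodes the metalloproteinase inducer basigin, rose by 0.55 ± 0.15 (adjusted p = 0.0114, all by limma). The Bsg call was lost with quantile normalization (0.23, adjusted p = 0.181), with normexp and quantile normalization (0.25, adjusted p = 0.0673) and in the authors' deposited table (0.96, adjusted p = 0.0600). Thbs2 was above background on 2 of 4 injured arrays, and with normexp and the 75th percentile its difference was -2.49 and that of Thbs1 1.70.

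The plasminogen system generates plasmin, a protease that activates some metalloproteinase proenzymes. Of its 10 genes, 6 were tested, of which 2 were higher and 2 lower, with a median difference of -0.25. Plat, the tissue plasminogen activator, fell by 2.88 ± 0.22 (limma, adjusted p = 2.5e-05). Anxa2 and S100a10, which together form a plasminogen receptor at the cell surface, rose by 1.97 ± 0.22 (adjusted p = 0.000154) and 1.47 ± 0.26 (adjusted p = 0.00133, all by limma).

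Genes of the matrix proteins that these proteases cut fell in most cases. Of 19 matrix genes tested out of 20, 16 were lower and 2 higher, and the median difference was -2.74, or -2.57 with genes below background in injured samples set at their bound. Across all genes tested, 24.8% were lower. The proteoglycan decorin gene Dcn fell by 7.79 ± 0.59 (limma, adjusted p = 2.5e-05), the elastin gene Eln fell by 5.74 ± 0.85 (adjusted p = 0.000558) and the basement membrane collagen gene Col4a1 fell by 4.92 ± 0.25 (adjusted p = 4.3e-06). Dcn was above background on 1 of 4 injured arrays and Eln on 2, so their fitted sizes rest in part on values below background, and with normexp and the 75th percentile they were -4.77 and -3.60. Vtn, the vitronectin gene, was at least 11.7-fold lower (adjusted p = 2.1e-06). Col1a2, of fibrillar collagen I, rose by 1.92 ± 0.50 (adjusted p = 0.00966), and the laminin gene Lamb1 rose by 1.29 ± 0.33 (adjusted p = 0.00965, all by limma). Col1a1, of the other chain of collagen I, went the other way. It fell by 2.87 ± 0.60 (limma, adjusted p = 0.00345) and was above background on 1 of 4 injured arrays. In the authors' deposited table Col1a2 differed by 0.98, and Lamb1 by 0.96 without passing (adjusted p = 0.0769). The count of lower genes was 16 without basal replicates 1 and 2 also, and 13 with injured replicate 1 alone. Dcn, Col1a1 and Col3a1 are also on the list of fibro-adipogenic markers, so the sums given above and the matrix count share these genes.

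All 12 Adam and Adamts genes of the list were tested, of which 2 were higher and 6 lower, with a median difference of -0.45. Those named as lower are secreted proteases of the Adamts family. Adamts1 fell by 4.16 ± 0.25 (limma, adjusted p = 8.8e-06), Adamts15 fell by 3.28 ± 0.80 (adjusted p = 0.00717), Adamts9 fell by 3.16 ± 0.24 (adjusted p = 2.2e-05) and Adamts5 fell by 2.68 ± 0.29 (adjusted p = 0.000116). Only Adamts5 of these was above background on all injured arrays, against 2 arrays for Adamts1 and 1 each for Adamts15 and Adamts9, so the other sizes rest in part on values below background. With normexp and the 75th percentile, the differences were -2.29 for Adamts1, -0.79 for Adamts15 and -1.25 for Adamts9, and the Adamts1 call was lost in the authors' deposited table (-1.63, adjusted p = 0.0581). The membrane proteases Adam8 and Adam19 rose by 2.47 ± 0.44 (adjusted p = 0.00154) and 2.43 ± 0.29 (adjusted p = 0.000212, all by limma). Adam8 was above background on 2 of 4 basal arrays, and with normexp and the 75th percentile its difference was 1.18. The count of lower genes was 4 without injured replicate 1, 3 or 4. It was 3 in the authors' deposited table.

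**Figure D4:**
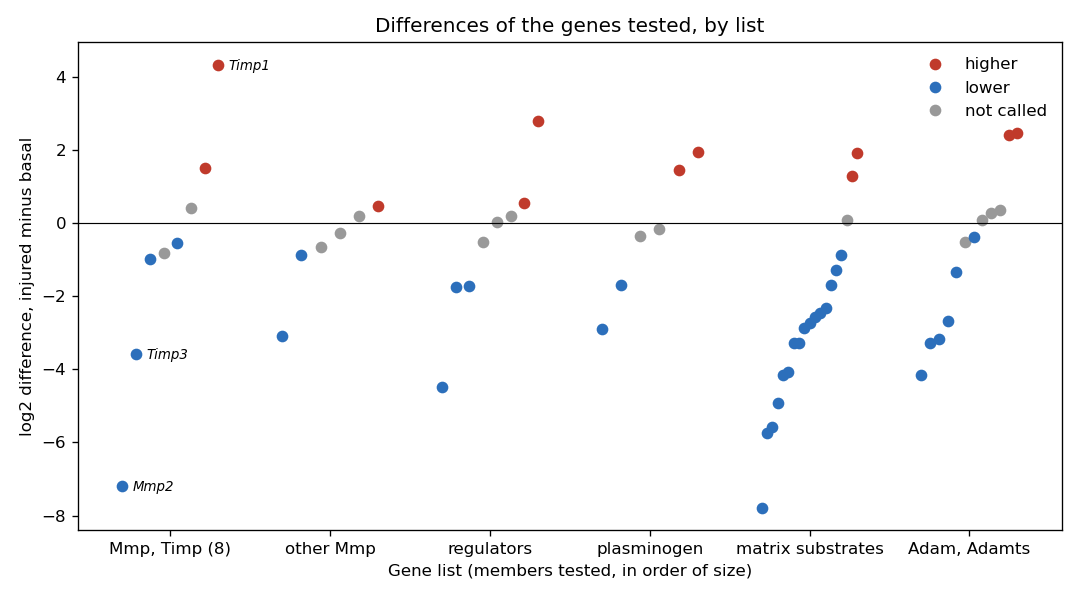
Differences of the tested genes of each list, injured minus basal on the log2 scale, 1 point per gene, ordered by size within a list and coloured by call, with the 8 tested genes of the family at the left. Matrix genes had a median of -2.74, while the medians of the other lists lay between -0.67 and -0.24 and that of all genes tested was 0.17.

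The genes whose pattern was most like that of Mmp2 were sought among 13764 genes, by the root mean square difference of levels centred on each gene's own mean over the 8 arrays. Among the 5 nearest were 4933409K07Rik (0.28), Gm3893 (0.35), Gm9615 (0.36) and Calcr (0.37). Their differences, injured minus basal, ran from -7.58 to -6.83. Mmp2, Gm9615 and Calcr were not above background on any injured array, where the level read is that of the probe's background, so these distances and differences are no measured sizes. The genes most like Timp1 were Trp53i11 (0.48), Spp1 (0.49), Atp1b1 (0.52), Map4k1 (0.52) and Mcm5 (0.53), with differences from 4.01 to 5.12. Timp1, Trp53i11, Spp1, Atp1b1 and Map4k1 were above background on only 2 of 4 basal arrays, and Mcm5 on 3. The distances for Timp1 were larger than those for Mmp2, and all 8 arrays enter both.

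**Figure D5:**
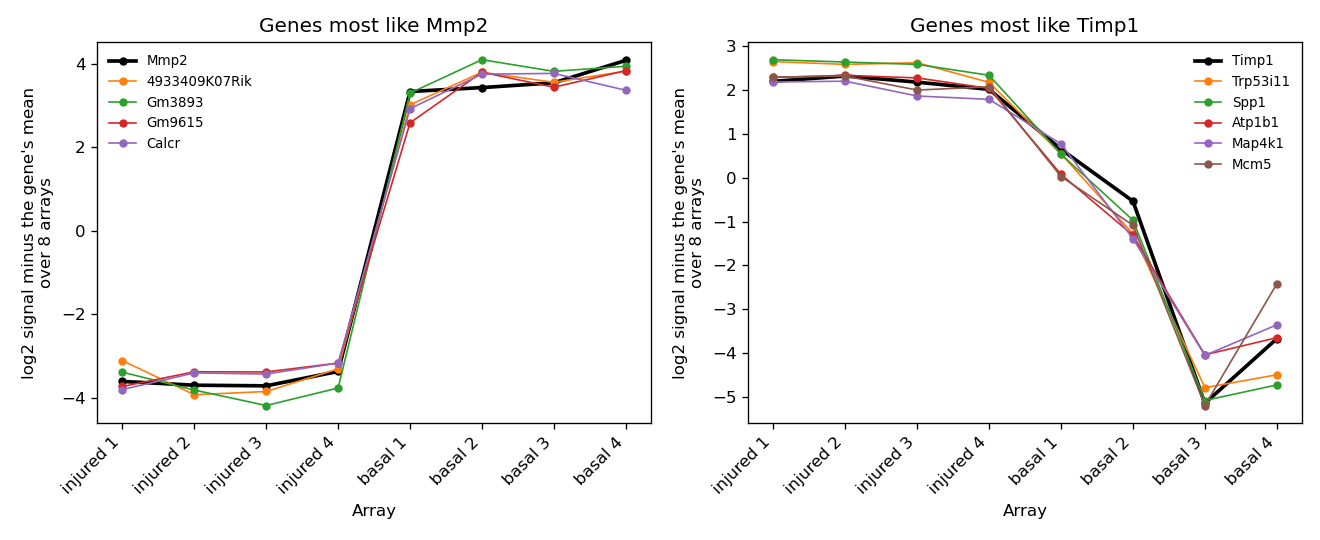
Levels centred on each gene's mean over the 8 arrays, for Mmp2 and Timp1 and genes named as nearest to each, injured arrays left of basal arrays. The genes near Mmp2 were even within each group, and those near Timp1 were uneven among basal arrays.

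Promoter sequence from RefSeq was matched for 7 of the 10 genes on the build GRCm38.p6, a build other than that of the probe positions. The 250 bases before the start are shown for Timp1 and Timp3, the inhibitors with the largest rise and the largest fall, with GC boxes (GGGCGG on either strand) in capitals.
Timp1 (chrX:20869916-20870165, plus strand): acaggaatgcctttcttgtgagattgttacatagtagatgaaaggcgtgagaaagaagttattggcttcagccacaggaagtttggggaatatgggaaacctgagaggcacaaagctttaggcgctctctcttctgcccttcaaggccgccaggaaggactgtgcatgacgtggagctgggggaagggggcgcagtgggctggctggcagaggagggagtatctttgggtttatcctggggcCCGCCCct
Timp3 (chr10:86300162-86300411, plus strand): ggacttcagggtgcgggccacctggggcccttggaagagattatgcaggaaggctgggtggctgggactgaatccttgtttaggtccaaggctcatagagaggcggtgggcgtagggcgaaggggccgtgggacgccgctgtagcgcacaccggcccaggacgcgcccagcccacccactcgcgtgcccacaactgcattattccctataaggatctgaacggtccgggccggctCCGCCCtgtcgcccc
In each of these windows 1 GC box was found, 8 bases before the start in Timp1 and 15 bases before it in Timp3, and their GC contents were 54.4% and 65.6%. A GC box was present in the windows of Mmp11, Mmp14, Mmp15, Timp1, Timp2 and Timp3 and not in that of Timp4, and 32.7% of 32851 promoters of the same length held it. The AP-1 letters TGAGTCA and the TATA letters TATAAA were in none of the 7 windows, against 4.46% and 12.4% of all promoters. The letters CAGCTG, an E box of the kind that MyoD binds, were in Timp2 and Timp4, against 13% of all promoters. All motifs were searched on both strands, and a match is a description of the letters in that window.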

How the data were processed

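RNA of 8 sorted satellite cell samples was read on 1-colour Agilent arrays, 1 array per sample. Per the file headers, Agilent Feature Extraction 10.7.3.1 made the spot intensity values that the authors deposited. It removed local background and marked weak or uneven spots. The authors' deposited table holds values on a log2 scale, as read from the values. The submitters' processing notes name limma, with version and steps not given in the sources used here, and scale and centring of that table are otherwise unknown; its column medians were 8.05 to 8.16. Its columns correlated with the scanner values of the same array at 0.571 to 0.952 over probes, lowest for basal replicate 4. By deviations from the mean of all arrays, 4 of the 8 arrays matched the column of another array of their group best, so it served as an alternative only.

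The processed signals were put on a log2 scale and each array's 75th percentile was subtracted. Uneven spots and population outliers were dropped, and the remaining spots of a probe were averaged. Genes were named through the mouse RefSeq gene table by accession (26300 of 55681 probes), current symbol (2044), synonym (355) or the array's own name (833), with 26149 unnamed. A gene was read from its probe with the highest mean signal, and tested if 3 or more of the 4 arrays of a group read that probe well above background. Levels of different probes were not set against each other, except in the marker sums. Those sums add the levels of different genes' probes, so they and their largest parts depend on each probe's own brightness. The fit used limma 3.58.1 (R 4.3.3; files were read with the package data.table, version 1.17.8), with a two-sided test, 2.55 prior and 6 residual degrees of freedom, Benjamini-Hochberg adjustment over 13773 genes and a threshold of 0.05. Of these genes, 8885 had an unadjusted p under 0.05. Errors are moderated SEs, with n = 4 per group, and 4 arrays per group limit the precision. The fit was tested on simulated data with known changes.

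The genes, the lists and the tests were chosen with earlier results of these data known. Named were the 10 genes, other Mmp genes tested, up to 4 and up to 2 called genes of each list by size in its main and other direction, and the 5 genes nearest to Mmp2 and to Timp1. Some genes that this rule names are not reported here. Marker genes given singly and second probes were chosen after their values were seen. Promoter windows come from RefSeq.

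The alternatives were quantile normalization, normexp (offset 50) with quantile normalization or the 75th percentile, the median of probes measured by every array as the scale, no filter or a filter that asks for every array, a gene's probes averaged, the authors' deposited table, a block on the replicate number, array weights, limma's trend with robust variances, and fits with arrays left out. Same-numbered injured and basal arrays deviated together with correlations of 0.058, 0.061, -0.012 and 0.188, so the number was taken as a name only.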

Additional observations from a re-analysis of the deposited data

How the results depend on the processing

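Of 721 values of single genes under alternatives, 662 kept their direction and side of the threshold, 47 lost the call, 6 gained one and 6 changed sign. Mmp2 and Timp3 kept their calls in every alternative that tested them, and Timp1 in all but the fit with injured replicate 1 alone; where all arrays had to be above background, Mmp2 and Timp1 were not tested. The count of higher genes of the family, 2, was 3 in the authors' deposited table, where Mmp11 was added. It was 1 with no filter on dim probes, 0 with genes above background on all arrays and 1 to 2 with single arrays left out. Equal counts did not always hold the same genes. Without basal replicate 4 the higher genes were Mmp11 and Timp1. Without basal replicate 3 the lower genes were Mmp2, Timp3 and Timp4. With injured replicate 1 alone, the differences of Timp1 and Mmp15 were 4.37 and 1.49. The count of lower genes, 4, was 2 in the authors' deposited table, 2 to 4 with single arrays left out and 2 without injured replicates 2, 3 and 4. With the replicate block, 2 were higher and 4 lower, and the block changed no call of the 10 genes. The best basal matches of injured replicates 1, 2, 3 and 4 were basal replicates 1, 1, 1 and 4. Injured replicates 1 and 4 thus matched their own number, and 2 and 3 did not. This does not settle whether the numbers pair the arrays. In the authors' deposited table, the difference, injured minus basal, had the other sign for Mmp23 (0.49), Mmp24 (-0.69), Mmp27 (-0.36) and Mmp28 (0.45), and with the mean of all probes for Mmp24 (-0.41). Mmp24 ran from -0.19 to 0.53 with single arrays left out. The cause was not tested. That table called 3299 genes higher and 774 lower, against 4866 and 3409, and moved the median of all genes to 0.47, against 0.17; the other scalings put it between 0.06 and 0.13. With injured replicate 1 alone, 766 were higher and 1004 lower. A slide block was not run, since each slide held 1 group. Signals below background limit Mmp2 in injured samples, Timp1 and Mmp15 on basal replicates 3 and 4, Dcn, Eln, Thbs2, Adamts1, Adamts9 and Adamts15 on some injured arrays, and Mmp9 and Mmp19 everywhere.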
